A study of Mus musculus with 32 samples.

Results

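Collagens, laminins and the glycoproteins and proteoglycans bound to them were followed across 8 groups of mouse small intestinal crypts and adenomas on Illumina MouseWG-6 v2.0 arrays. Members were the collagen chain genes, the laminin chain genes and a short list of matrix genes (Fn1, Sparc, Dcn, Lum, Bgn, Fbn1, Fbln1, Fbln2, Tnc, Nid1, Nid2, Postn and Hspg2) that had a named probe in the deposited value table. This gave 44 genes, measured by 67 probes, of 11484 genes with a named probe among 20824 probes. Fbn1 and Postn were not analysed here. A gene is given by its brightest probe, since 27 members had 1 probe and the others had 2 to 5.

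The study asked how the Wnt enhanceosome factors Pygo and Bcl9 bear on Apc-driven intestinal adenomas. The strain given was C57BL/6J, and all mice were 120 days old. By the paper's methods the Bcl9/B9l and Pygo knockout lines had been back-crossed into C57BL/6. Whether their background fully matched that of the wt mice is not known. Crypts were taken off the intestine with EDTA and came from wt mice (n = 3), wt villin.Cre mice (n = 3), Pygo1/2 DKO mice (Pygo1-/-, Pygo2 LoxP/LoxP, villin.Cre/+, n = 3) and Bcl9/B9l DKO mice (villin.Cre/+ with Bcl9 LoxP/LoxP and B9l LoxP/LoxP, n = 3). Adenomas were cut out whole from ApcMin/+ mice, referred to as ApcMin (n = 9), and from ApcMin/+ mice that also carried the Pygo1/2 DKO alleles (n = 5), the Bcl9/B9l DKO alleles (n = 3), or all of these alleles, the QKO (n = 3). ApcMin adenomas and wt crypts carried no villin.Cre. The villin promoter drives Cre in the intestinal epithelium, so the LoxP alleles of stromal cells in an adenoma were not its targets, whereas Pygo1 was a germline null. RNA of several extractions of one mouse was typically pooled for an array, and no label ties the arrays of a group to separate mice. The p-values therefore speak to the spread among these samples, which may be technical.

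RNA was run in 2 batches, and the QKO adenomas were in batch 2 together with ApcMin adenomas 4, 6 and 8, while the other 26 arrays were in batch 1. Mean intensity per array was 307 to 445 in batch 1 and 156 to 217 in batch 2, so each batch was normalized on its own, adenomas were compared only within a batch, and no level is set across batches. Arrays of a group correlated at r = 0.971 to 0.994 over all probes. Bcl9/B9l DKO adenomas 1 and 3 stood apart through pancreatic acinar transcripts: Cpa1 was at 14.26 and 11.06 on these arrays on the normalized log2 scale and at 4.47 on array 2. Members whose calls rest on this group are therefore also given without these 2 arrays. That leaves 1 array in the group, its spread taken from the other groups of the fit. The Pygo2 probe was lower in Pygo1/2 DKO crypts (7.97 to 8.59) than in villin.Cre crypts (9.62 to 9.90), in Pygo1/2 DKO adenomas (8.97 to 9.56) than in ApcMin adenomas (9.99 to 10.58), and by a narrow gap in QKO adenomas (8.41 to 8.60) than in their ApcMin controls (8.63 to 9.23). Pygo1 was near background throughout, and the probes of Bcl9 and its paralogue Bcl9l, the gene of the B9l allele, were not lower in the groups deleted for them. Whether those probes lie in the deleted parts was not tested, so they do not check the labels.

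The extracellular matrix has a sheet-like and a fibrous form. Basement membranes lie under epithelia and around vessels and muscle, and are built of laminin trimers and type IV collagen networks that nidogens and perlecan tie together. The interstitial matrix between stromal cells holds fibrils of type I, III and V collagen, decorated by small leucine-rich proteoglycans such as decorin and lumican. In the gut most of these proteins are made by fibroblasts, smooth muscle and endothelium, whereas the epithelium makes its own share of the laminins. The members fell into 8 fibrillar collagens, 5 basement membrane collagens, 5 beaded filament and anchoring collagens, 6 fibril-associated and network collagens, 2 transmembrane collagens, 7 laminin chains, 3 linkers of the basement membrane and 8 glycoproteins and proteoglycans.

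Promoter sequences from RefSeq (GRCm38.p6) were matched for 34 of the 44 members. They are shown for 4 genes on which the adenoma comparisons below turn, chosen after their values were seen: Col9a2 and Col16a1, fibril-associated collagens, Lama5, a laminin alpha chain, and Sparc, a collagen-binding glycoprotein. Each is the 250 bases before the start site, 5′ to 3′ on the gene's strand, and lies at chr4:121039316-121039565 (Col9a2, plus strand), chr4:130047590-130047839 (Col16a1, plus strand), chr2:180225860-180226109 (Lama5, minus strand) and chr11:55420081-55420330 (Sparc, minus strand). Capitals mark matches, on either strand, to the T-cell factor letters CTTTGAT or CTTTGAA, the AP-1 letters TGACTCA, the TATA box TATAAA, the CCAAT box CCAAT and the GC box GGGCGG.
Col9a2: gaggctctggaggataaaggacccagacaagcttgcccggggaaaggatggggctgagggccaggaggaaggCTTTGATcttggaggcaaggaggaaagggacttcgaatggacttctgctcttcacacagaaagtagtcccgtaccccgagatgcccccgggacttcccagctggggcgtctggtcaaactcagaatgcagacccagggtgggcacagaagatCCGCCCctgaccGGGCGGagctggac
Col16a1: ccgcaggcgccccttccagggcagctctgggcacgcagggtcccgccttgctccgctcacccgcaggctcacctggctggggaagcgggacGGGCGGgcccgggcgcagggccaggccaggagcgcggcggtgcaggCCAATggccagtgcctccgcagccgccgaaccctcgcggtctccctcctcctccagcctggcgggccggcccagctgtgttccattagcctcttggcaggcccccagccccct
Lama5: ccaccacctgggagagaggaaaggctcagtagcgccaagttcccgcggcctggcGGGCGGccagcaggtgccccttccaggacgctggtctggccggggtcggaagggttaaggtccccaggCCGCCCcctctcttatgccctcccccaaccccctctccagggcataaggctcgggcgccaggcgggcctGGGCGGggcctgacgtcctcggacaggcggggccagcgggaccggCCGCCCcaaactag
Sparc: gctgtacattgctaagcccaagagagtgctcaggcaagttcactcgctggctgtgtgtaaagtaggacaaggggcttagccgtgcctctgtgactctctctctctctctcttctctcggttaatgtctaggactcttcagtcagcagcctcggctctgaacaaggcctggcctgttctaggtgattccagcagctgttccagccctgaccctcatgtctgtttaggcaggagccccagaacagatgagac
The Col9a2 promoter held the only CTTTGAT among the members, 178 bases before the start site, and the Sparc window held none of the 6 motifs. CTTTGAT was in 2.94% of member promoters and 3.72% of the promoters of all 27025 genes, and CTTTGAA, in Bgn, Col15a1, Col6a2 and Col9a1, in 11.8% against 5.19%. The GC box was in 70.6% of member promoters and 35.4% of all, the CCAAT box in 38.2% and 37.5%, the TATA box in 8.82% and 14.3%, and the AP-1 letters in 2.94% and 5.16%. A match is a description and not a binding site, and a promoter without one only lacks these letters in this window.

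Crypts carried signal for few matrix genes. A member was called detected on an array at a detection p under 0.01 against the negative control beads. In wt crypts 7 of 44 members were detected on all 3 arrays and 32 on none, and the other crypt groups lacked signal for 30 to 32. In batch 1 adenomas 28 (ApcMin), 32 (Pygo1/2 DKO) and 30 (Bcl9/B9l DKO) members were detected on every array of the group, and 4, 4 and 8 on none. Lamb3, the beta chain of the epithelial laminin-332, and Fbln1, the basement membrane and elastic fibre protein fibulin-1, were detected on all 32 arrays.

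**Figure D1:**
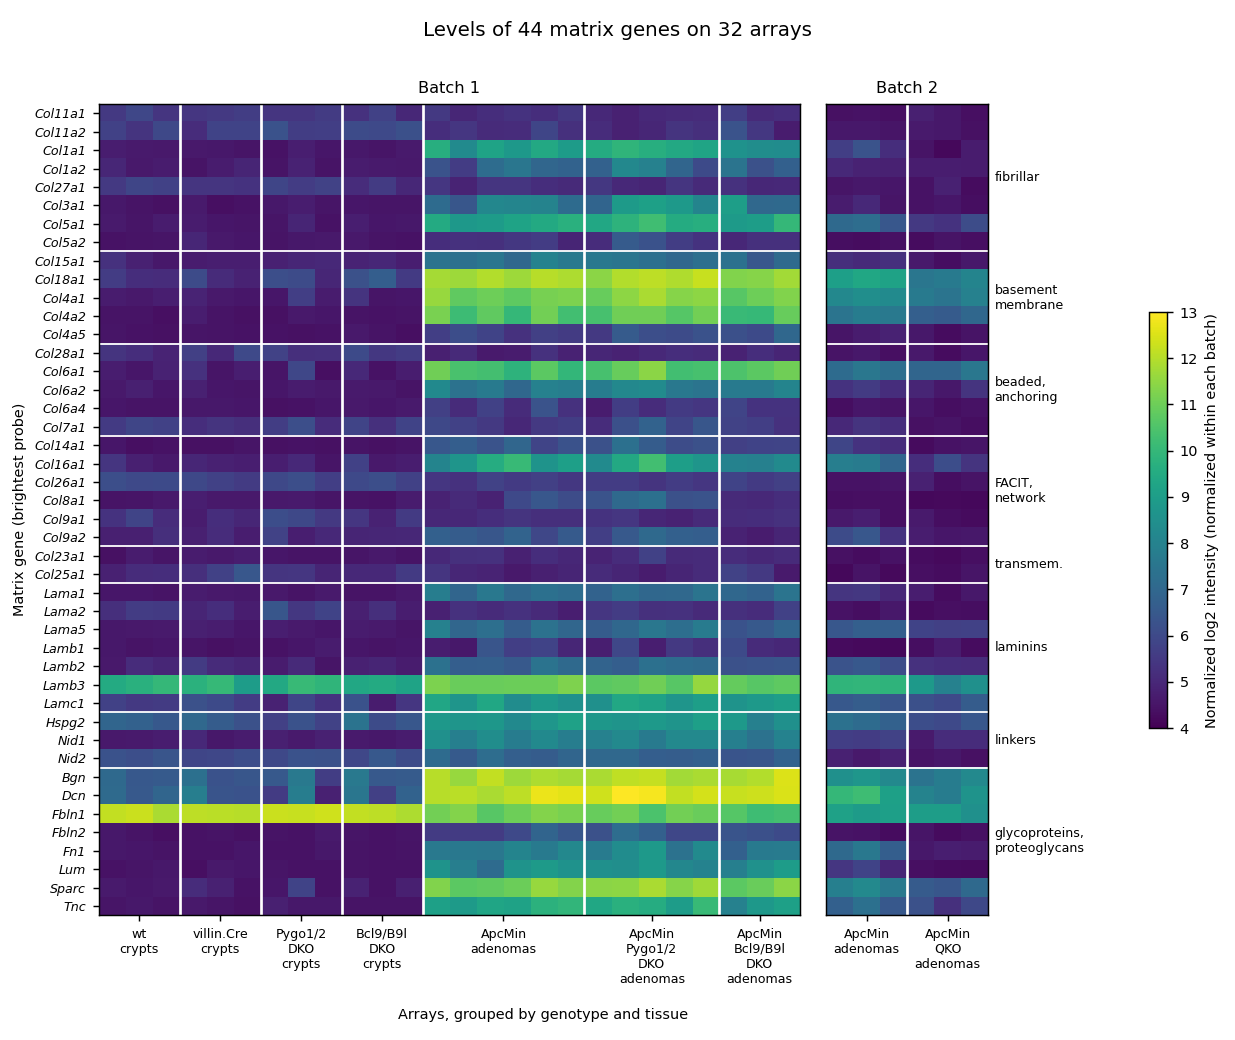
Heat map of the normalized log2 intensity of 44 matrix genes (rows, grouped by family) on 32 arrays (columns, grouped by genotype and tissue), with the 2 batches normalized and drawn apart; colours compare the arrays of a row, not one gene with another. Most rows are dark in the crypts and bright in the batch 1 adenomas, whereas Fbln1 is brightest in the crypts and Lamb3 is bright throughout.

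The first comparison set the matrix genes of whole adenomas against those of crypts taken off with EDTA. Tissue, preparation and the ApcMin allele of the mouse go together in every such comparison. A change in the tumour, a difference in preparation and an effect of the germline allele therefore cannot be told apart. In ApcMin adenomas (6 arrays of batch 1) against wt crypts, 30 of 40 members tested were higher and 1 was lower at an adjusted p under 0.01 (limma with Benjamini-Hochberg adjustment over all probes tested), against 20.9% of all genes called higher and 17.2% called lower. A probe was tested if it was detected on at least 1 array of the comparison, so a member silent in crypts entered only through its adenoma signal. Over all 44 members without that filter, 34 lay above 0 and 10 below, with a median log2 difference of 1.99, while 48% of all genes lay above 0 and their median was -0.03. In 33 members all adenomas lay above all crypts, which 26.6% of all genes did.

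All 5 basement membrane collagens were higher. Col18a1, whose product carries the endostatin domain, was at 5.61, 5.18 and 5.13 in wt crypts and at 11.67 to 12.04 (median 11.85) in ApcMin adenomas, at least 66.2-fold higher (adjusted p = 5.69e-10). Col4a1, a chain of the main type IV collagen network, was at 4.67, 4.61 and 4.74 in wt crypts and at 10.77 to 11.60 (median 11.10) in adenomas, at least 39.4-fold higher (adjusted p = 1.52e-09). No array of either group came near the other in these genes. Where a gene was undetected in a whole group, as here, the fold is a lower bound: the mean of the higher group was set against a mean taken, for each array of the lower group, from the higher of the lowest detected signal and the gene's own value. Col4a2, the partner chain of Col4a1, was at least 27.6-fold higher (adjusted p = 1.85e-08) and Col15a1, a collagen of vascular and muscle basement membranes, at least 3.24-fold. Col4a5 passed the test (adjusted p = 0.000154) at a level too low for a bound.

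Among the 3 linkers, Hspg2, which encodes perlecan, was detected in crypts (6.95, 6.80 and 6.48) and higher in adenomas (8.27 to 9.14, median 8.74), by 1.99 ± 0.19 on the log2 scale (SE, adjusted p = 7.76e-06). Nid1, encoding nidogen-1, was at least 5.01-fold higher (adjusted p = 1.32e-07). Nid2, encoding nidogen-2, was 0.60 ± 0.18 above the crypts and missed the threshold (adjusted p = 0.0154).

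Of 6 laminin chains tested, 5 were higher. Lamb3 was at 9.52, 9.72 and 10.01 in wt crypts and at 10.93 to 11.26 (median 10.98) in adenomas, a difference of 1.31 ± 0.15 (SE, adjusted p = 3.66e-05). These groups did not overlap, although the shift was small beside that of the collagens. Lamc1, the gamma chain shared by most laminins, was at 5.73, 5.49 and 5.57 in crypts and at 8.37 to 9.37 (median 8.76) in adenomas, at least 8.33-fold higher (adjusted p = 7.86e-07). Lama1, Lama5 and Lamb2, chains of basement membrane laminins, were higher by at least 2.86-fold, 2.65-fold and 2.25-fold. Lamb1 was not called (adjusted p = 0.07).

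Fibrillar collagens were higher in 5 of 8 genes. Col1a1, a chain of type I collagen, was at 4.71, 4.64 and 4.62 in wt crypts and at 8.32 to 9.64 (median 9.07) in adenomas, at least 9.57-fold higher (adjusted p = 1.48e-07). Its partner chain Col1a2 was at least 1.92-fold higher (adjusted p = 0.000695), Col3a1, the fibrillar collagen of pliable tissue, at least 3.25-fold (adjusted p = 4.29e-05) and Col5a1, a chain that starts and thins type I fibrils, at least 11.2-fold (adjusted p = 1.95e-08). Col5a2 passed the test at an adjusted p of 0.00138 without a bound above 1. The cartilage collagens Col11a1 and Col11a2 and the related Col27a1 were not called, with log2 differences of -0.33, -0.37 and -0.49.

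Col6a1, a chain of the type VI beaded filaments around cells, was at 4.74, 4.55 and 4.85 in wt crypts, undetected, and at 9.81 to 11.05 in adenomas, at least 23.9-fold higher (adjusted p = 2.31e-08), and Col6a2, its partner, at least 3.75-fold. Col7a1, the anchoring fibril collagen, was not called (-0.15). Among the fibril-associated and network collagens, Col16a1 was at 5.40, 4.81 and 4.63 in wt crypts and at 8.06 to 10.07 (median 8.88) in adenomas, at least 9.31-fold higher (adjusted p = 7.11e-06), and Col9a2 and Col14a1, which also bind fibril surfaces, were higher by at least 1.65-fold and 1.53-fold. Col26a1 was 0.52 below the crypts and just missed the threshold (adjusted p = 0.011).

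Glycoproteins and proteoglycans were the group that moved both ways, with 7 higher and 1 lower of 8. Sparc was at 4.65, 4.56 and 4.60 in wt crypts and at 10.72 to 11.61 (median 11.14) in adenomas, at least 40.1-fold higher (adjusted p = 2.14e-09). Bgn (biglycan) and Dcn (decorin), small leucine-rich proteoglycans, were already detected in crypts, at means of 6.70 and 6.85, and rose by 5.16 ± 0.18 (adjusted p = 5.2e-09) and 5.40 ± 0.22 (adjusted p = 1.38e-08) on the log2 scale. Tnc, encoding tenascin-C, a glycoprotein of remodelled stroma, was at least 11.9-fold higher, Lum (lumican) at least 5.61-fold, and Fn1 (fibronectin, the ligand of integrin alpha5 beta1) at least 3.98-fold (adjusted p = 7.44e-08).

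Fbln1 was the only member called lower. It was at 12.17, 12.27 and 11.85 in wt crypts and at 10.68 to 11.34 (median 11.14) in adenomas, a difference of -0.99 ± 0.18 (SE, adjusted p = 0.000764). Its 4 other probes were lower by more, with log2 differences of -1.51 to -1.56, all called. Probes of a gene disagreed in a few other cases: second probes of Fn1, Col14a1 and Col6a2 differed by 0.32, 0.35 and 0.53 and were not called (adjusted p = 0.192, 0.0843 and 0.0166).

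The same tissue comparison was made for each set of DKO alleles, which both sides carried, with ApcMin/+ in the adenomas only. In Pygo1/2 DKO adenomas (n = 5) against Pygo1/2 DKO crypts (n = 3), 32 of 41 members tested were higher and 2 lower, against 24.7% and 19.6% of all genes. In Bcl9/B9l DKO adenomas (n = 3) against Bcl9/B9l DKO crypts (n = 3), 27 of 37 were higher and 1 lower, against 13.8% and 10.5%. Over all 44 members, 35 lay above 0 in each, with medians of 2.34 and 1.85. These comparisons share no array with each other or with the ApcMin one.

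Sparc and the type IV collagens again had large bounds. Sparc was higher by at least 48.7-fold (Pygo1/2 DKO, adjusted p = 5.13e-08) and 36.4-fold (Bcl9/B9l DKO, adjusted p = 5.79e-06). Col4a1 was higher by at least 43.7-fold and 35.4-fold, and Col4a2 by at least 29.4-fold and 22.5-fold. Col18a1, detected in some crypts of these genotypes, was higher by 6.20 ± 0.29 and 5.32 ± 0.31 on the log2 scale. All 5 basement membrane collagens and 7 of 8 glycoproteins and proteoglycans were higher in both genotypes, as were 5 of 7 laminins. Dcn differed by 6.51 ± 0.52 and 5.65 ± 0.41, and Fn1 by at least 4.49-fold and 2.94-fold.

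Fbln1 was lower here too. It was at 12.29, 12.24 and 12.35 in Pygo1/2 DKO crypts against 10.90, 11.10, 10.44, 11.07 and 10.96 in their adenomas (-1.40 ± 0.19, adjusted p = 8.15e-05), and at 12.17, 12.12 and 11.91 in Bcl9/B9l DKO crypts against 10.62, 10.21 and 10.32 in their adenomas (-1.68 ± 0.20, adjusted p = 0.000487). Crypts and adenomas did not overlap in either genotype. Col11a2 was the other member called lower in Pygo1/2 DKO adenomas, where it was undetected, by at least 1.40-fold (adjusted p = 0.00678, detected in 1 of 3 crypts), a call lost in 12 of 14 other settings. Without Bcl9/B9l DKO adenomas 1 and 3, 1 adenoma was left that was assumed to vary like the crypts. The log2 differences were then 5.62 for Dcn, 3.37 for Lamc1, -1.85 for Fbln1 and 5.22 for Col18a1. Sparc, Col4a1 and Col4a2, undetected in these crypts, were at 10.93, 11.02 and 10.02 on the adenoma left. Some calls were lost, those of Dcn, Lamc1 and Fbln1 among them. Whether a call was kept or lost here reflects the spread of the crypts and not that of the adenomas.

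**Figure D2:**
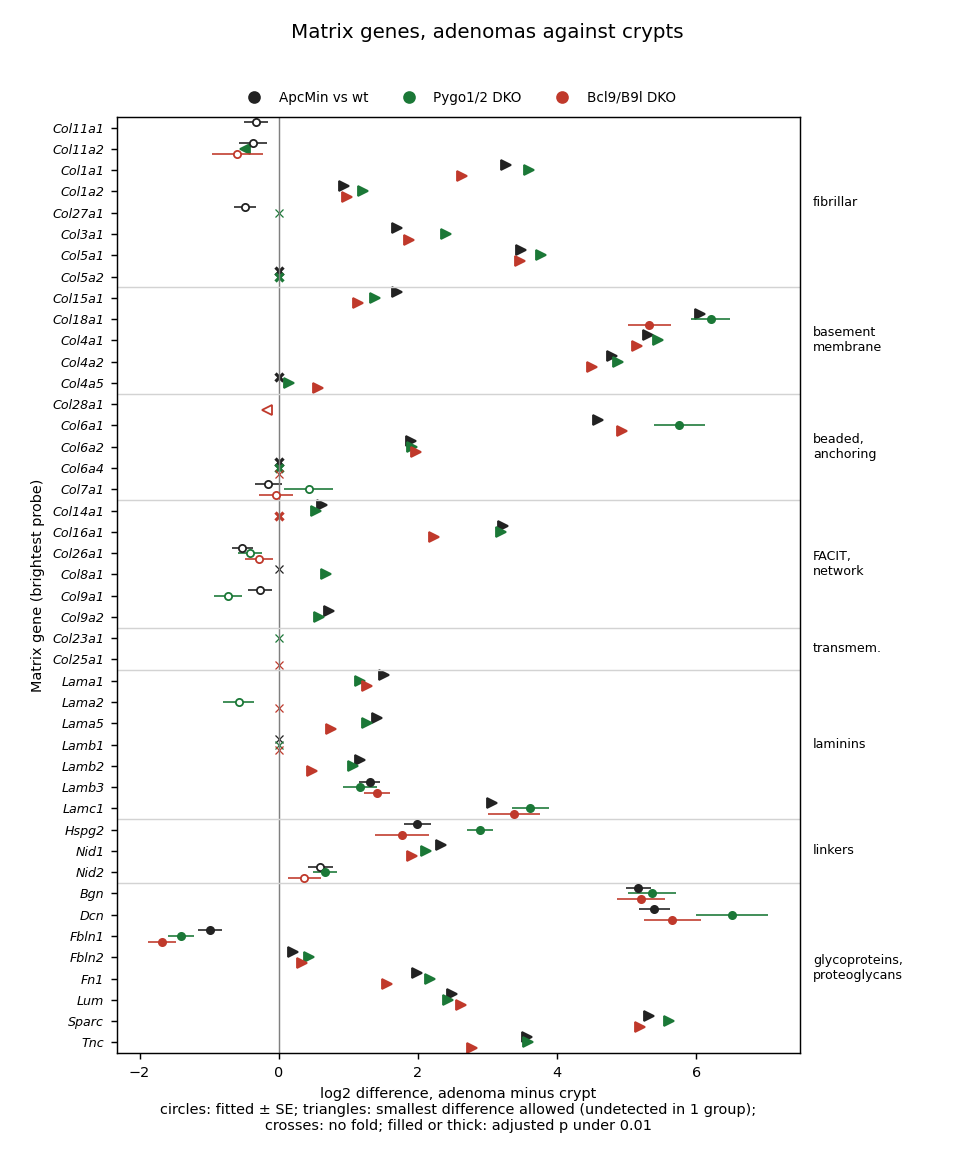
Log2 difference between adenoma and crypt (x axis, adenoma minus crypt) for each matrix gene (y axis, grouped by family). ApcMin adenomas are set against wt crypts, and Pygo1/2 DKO and Bcl9/B9l DKO adenomas, which also carry ApcMin, against crypts with the same DKO alleles. Circles are fitted differences with SE bars, and triangles are lower bounds where 1 group was undetected. Crosses mark genes without a fold, and filled symbols passed an adjusted p of 0.01. Col18a1, Col4a1, Sparc, Dcn and Bgn lie far to the right in all 3 comparisons and Fbln1 lies to the left.

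Crypts carried epithelial signal, since all 8 epithelial markers were detected in every crypt array. Their sums were 46061 to 52808 in crypts and 43116 to 55718 in batch 1 adenomas, so these sums do not tell the tissues apart. Of the single markers, 2 were called higher and 2 lower in ApcMin adenomas than in wt crypts. Markers of stromal cells moved with the matrix genes. The 7 fibroblast markers were undetected in every crypt group, and their summed normalized intensity was 176 to 209 in crypts, 1309 to 2474 in ApcMin adenomas, 1626 to 2994 in Pygo1/2 DKO and 1393 to 1848 in Bcl9/B9l DKO adenomas. Sums of 6 smooth muscle markers were 212 to 1494 in crypts and 5193 to 23264 in batch 1 adenomas. Myh11, Tagln and Lmod1 were undetected in every crypt group, but Acta2, Actg2 and Des were detected on all 3 wt crypt arrays. The sums were uneven among crypts: villin.Cre crypt 1 (1494), Pygo1/2 DKO crypt 2 (1343) and Bcl9/B9l DKO crypt 1 (1446) were highest in their groups. These arrays also had the highest Dcn of their groups (7.86, 7.80 and 7.54). Sums of 7 endothelial markers were 200 to 342 in crypts and 2663 to 4314 in batch 1 adenomas, with Pecam1, Cdh5, Tek, Emcn and Plvap undetected in crypts. Sums of 6 leukocyte markers were 264 to 561 and 1096 to 5934. The part of cell makeup in the tissue differences was not tested, and in bulk RNA fewer cells of a type and less RNA per cell cannot be told apart.

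**Figure D3:**
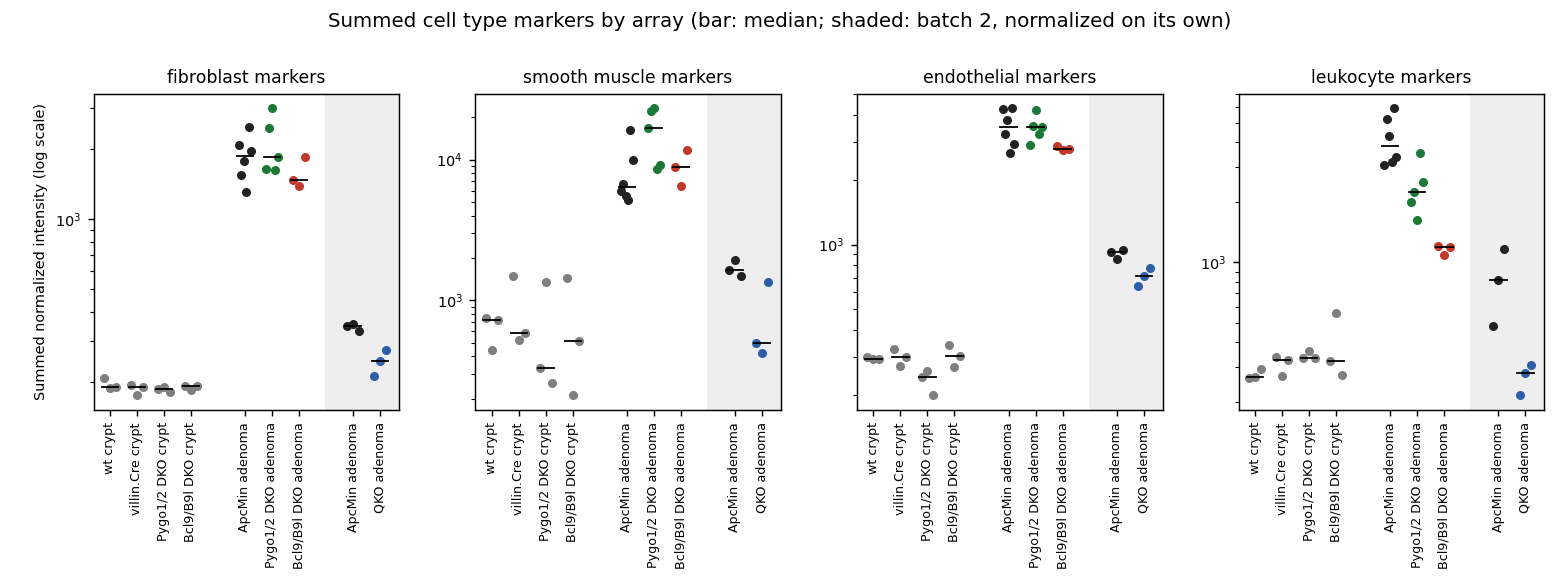
Summed normalized intensity (y axis, log scale) of the fibroblast, smooth muscle, endothelial and leukocyte markers on each array, by group, with a bar at the median; the shaded arrays are batch 2, normalized on its own. Every adenoma of batch 1 lies above every crypt in each list, and in batch 2 the QKO adenomas lie below the ApcMin adenomas.

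Loss of Pygo or of Bcl9 alone was asked about next, among the 14 adenomas of batch 1 in 1 fit. In Pygo1/2 DKO (n = 5) against ApcMin adenomas (n = 6), 0 of 43 members tested passed limma's adjusted p of 0.01, where 0.193% of all genes did, and 4 had an unadjusted p under 0.05. The smallest p-values belonged to Col8a1, a short-chain collagen of vessel walls, Col1a1 and Sparc. Col8a1 was at 6.32, 7.06, 7.33, 6.22 and 6.29 in Pygo1/2 DKO adenomas and at 4.86 to 6.44 (median 5.52) in ApcMin adenomas, a difference of 1.09 ± 0.30 (SE, adjusted p = 0.118), and the groups overlapped. Col1a1 was 0.50 ± 0.20 (adjusted p = 0.303) and Sparc 0.45 ± 0.18 (adjusted p = 0.309) above the ApcMin mean. For the basement membrane collagens the 95% intervals of the difference were -0.24 to 0.42 (Col18a1) and -0.09 to 0.72 (Col4a1), and for Fn1 -0.19 to 0.87. All 6 smooth muscle markers lay above the ApcMin mean (median log2 difference 1.08), as did 5 of 7 fibroblast markers (median 0.15), and all 6 leukocyte markers lay below it (median -1.02). None of these markers was called by limma, and their part in the member values was not tested.

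In Bcl9/B9l DKO (n = 3) against ApcMin adenomas, 1 of 43 members was lower, where 1.52% of all genes were, and 0 were higher (0.724% of all genes), with 10 members at an unadjusted p under 0.05. The member was Col9a2, at 4.86, 4.70 and 4.94 in Bcl9/B9l DKO adenomas and at 5.93 to 6.88 (median 6.59) in ApcMin adenomas. It was detected on no Bcl9/B9l DKO adenoma and on all 6 ApcMin adenomas, and was at least 2.00-fold lower (adjusted p = 0.00136). In Pygo1/2 DKO adenomas Col9a2 was at 5.66, 6.50, 7.08, 6.76 and 6.70, and the Bcl9/B9l DKO adenomas were at least 2.03-fold below these (adjusted p = 0.00204), the only member called of 43 between the DKO genotypes, against 0.926% of all genes called lower and 0.376% higher. Without Bcl9/B9l DKO adenomas 1 and 3 the adjusted p of Col9a2 was 0.0618 against ApcMin and 0.0791 against Pygo1/2 DKO, with 1 array of the group left, on which Col9a2 was undetected. Leaving out Bcl9/B9l DKO adenoma 2 alone, the one with Cpa1 near background, ended both calls, and leaving out adenoma 3 alone ended the one against Pygo1/2 DKO.

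Other members were lower in Bcl9/B9l DKO adenomas without passing the threshold. Fbln1 was at 10.62, 10.21 and 10.32 against 10.68 to 11.34 in ApcMin adenomas, a difference of -0.72 ± 0.19 (SE, adjusted p = 0.0334), and its other probes differed by -0.16 to -0.88. Lamb2 was at 6.24, 6.32 and 6.38 against 6.51 to 7.43 (-0.65 ± 0.21, adjusted p = 0.0864). In these and in Col9a2, Col14a1 and Lamb3, 5 members in all, every Bcl9/B9l DKO adenoma lay below every ApcMin adenoma, which held for 7.11% of all genes. Against Pygo1/2 DKO adenomas, Col1a1 was 1.08 lower on the log2 scale (8.60, 8.42 and 8.37 against 9.54, 9.87, 9.65, 9.44 and 9.27, adjusted p = 0.0261) and Col8a1, undetected in Bcl9/B9l DKO adenomas, was at least 2.18-fold lower in level (adjusted p = 0.0335). Without Bcl9/B9l DKO adenomas 1 and 3, limma gave -0.89 for Fbln1 (adjusted p = 0.156) and -0.65 for Lamb2 (adjusted p = 0.388) against ApcMin, -1.13 for Col1a1 against Pygo1/2 DKO (adjusted p = 0.305), and an adjusted p of 0.34 for Col8a1. Over all 44 members, 25 lay below 0 against ApcMin and 32 against Pygo1/2 DKO, where 47.9% and 47% of all genes lay below 0. These comparisons share arrays and are not independent of each other. Sums of leukocyte markers were 1096 to 1205 in Bcl9/B9l DKO adenomas and 3076 to 5934 in ApcMin adenomas, with Cpa3 undetected in the former. Against Pygo1/2 DKO adenomas all 7 fibroblast, all 6 smooth muscle and all 7 endothelial markers lay below 0 in Bcl9/B9l DKO (median log2 differences -0.29, -0.92 and -0.43) and 0 of them were called by limma, while 4 of 6 leukocyte markers lay below 0 and 2 were called. The part of these markers in the member values was not tested.

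Loss of all 4 genes was compared within batch 2. In QKO (n = 3) against ApcMin adenomas (n = 3), 9 of 28 members tested were lower and 0 higher, against 4.28% of all genes called lower and 1.19% called higher, and 22 members had an unadjusted p under 0.05. The 9 were Fn1, Col18a1, Lamb2, Lama5, Lamb3, Col16a1, Col7a1, Sparc and Col4a2. All 28 members tested lay below 0. Of the 44 members, 16 were detected on no ApcMin adenoma of batch 2 and 26 on no QKO adenoma. Members silent in QKO, Fn1 and Col7a1 among them, were tested only through their ApcMin signal, so the filter favours values below 0. Over all 44 members without the filter, 38 lay below 0 and 6 above, with a median of -0.51, while 50.6% of all genes lay below 0. In 22 of the 28 every QKO adenoma lay below every ApcMin adenoma, against 19.4% of all genes. The counts moved with single arrays: 1 member passed without ApcMin adenoma 6, 2 without ApcMin adenoma 4, and 5, 4 and 3 without QKO adenoma 1, 2 and 3.

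Fn1 had the smallest p. It was at 4.59, 4.74 and 4.69 in QKO adenomas, where it was undetected, and at 7.09, 7.62 and 6.71 in ApcMin adenomas, at least 4.55-fold lower (adjusted p = 0.000507). The QKO arrays lay close together and far below every ApcMin array. This call held in 14 of 14 other settings, which include leaving out each array in turn, with a highest adjusted p of 0.00733. Over these settings, which also include the mean over its 2 probes, the fitted log2 difference ran from -3.11 to -1.36. Sparc was at 6.59, 6.42 and 7.07 against 7.87, 8.23 and 7.65, a difference of -1.23 ± 0.21 (SE, adjusted p = 0.00823), and held in 6 of 14 settings. Its other probes differed by -0.97 (adjusted p = 0.0216) and -0.28 (adjusted p = 0.215).

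Of 5 laminin chains tested 3 were lower. Lamb3 was at 8.86, 7.97 and 8.50 in QKO and at 9.88, 9.94 and 9.86 in ApcMin adenomas (-1.45 ± 0.21, adjusted p = 0.00431). Lamb2, the beta chain of vascular and muscle laminins, was at 5.29, 5.19 and 5.15 against 6.30, 6.47 and 6.09 (-1.08 ± 0.14, adjusted p = 0.00233). Lama5, the alpha chain of the main laminins under adult epithelia, was at 5.81, 5.70 and 5.72 against 6.45, 6.74 and 6.69 (-0.88 ± 0.13, adjusted p = 0.00429). In these 3 genes the QKO and ApcMin arrays did not overlap, and the calls held in 8, 10 and 8 of 14 settings. Lamc1 differed by -0.24 (95% interval -0.64 to 0.17) and was not called.

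Of 4 basement membrane collagens tested 2 were lower. Col18a1 was at 7.52, 7.70 and 8.06 against 9.08, 9.38 and 9.18 (-1.45 ± 0.17, adjusted p = 0.00153), held in 12 of 14 settings. Its second probe differed by -0.47 (adjusted p = 0.0337). Col4a2 was at 6.73, 6.60 and 7.01 against 7.48, 7.77 and 7.64 (-0.85 ± 0.15, adjusted p = 0.00941), held in 4 of 14 settings. Col4a1, which shares its promoter region with Col4a2, differed by -0.60 and was not called (adjusted p = 0.0362). Among the linkers Hspg2 differed by -0.91 (adjusted p = 0.0149) and Nid1 by -0.70 (adjusted p = 0.0252), neither called.

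Col16a1 was at 5.17, 6.12 and 5.35 in QKO and at 7.85, 7.74 and 6.92 in ApcMin adenomas, a difference of -1.96 ± 0.31 (SE, adjusted p = 0.0056), and Col7a1 was at 4.40, 4.46 and 4.34 against 5.05, 5.37 and 5.18, at least 1.19-fold lower (adjusted p = 0.00659). Both sets of arrays were apart, and the calls held in 8 and 5 of 14 settings. Of 4 fibrillar collagens tested 0 passed limma's test: Col5a1 differed by -1.27 (adjusted p = 0.016) and Col1a1 was at least 1.70-fold lower in level with an adjusted p of 0.0199. Dcn was at 8.02, 7.77 and 8.62 against 9.98, 10.21 and 9.12 and just missed the threshold (-1.63 ± 0.31, adjusted p = 0.0121). Col9a2, undetected in QKO adenomas at 4.71, 4.56 and 4.59, was at 6.06, 6.43 and 5.33 in ApcMin adenomas, at least 1.99-fold lower, and just missed it too (adjusted p = 0.0129).

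Other members were not called. Fbln1 was at 9.02, 9.02 and 8.51 in QKO and at 9.15, 8.95 and 9.08 in ApcMin adenomas, with overlapping arrays and a 95% interval of -0.59 to 0.17 for the difference (adjusted p = 0.445). Col6a1 differed by -0.17 (95% interval -0.64 to 0.29, adjusted p = 0.604). Tnc and Bgn lay 1.05 and 0.68 below the ApcMin mean on the log2 scale and were not called (adjusted p = 0.0486 and 0.0809).

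Promoters were available for 8 of the 9 members called lower in QKO adenomas, all but Fn1. None held CTTTGAT or CTTTGAA, which 3.72% and 5.19% of all genes held. The CCAAT box was in 4 and the GC box in 5, against 37.5% and 35.4% of all genes. With 8 promoters, 0 matches to letters this rare does not set these members apart.

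Markers of other cells moved in the same comparison. Summed fibroblast markers were 212 to 275 in QKO and 331 to 357 in ApcMin adenomas of batch 2, with Pdgfrb, Dpt, Mfap5 and Cd34 undetected in both. Summed smooth muscle markers were 424 to 1352 against 1499 to 1945, with Tagln and Lmod1 undetected in QKO, endothelial markers 645 to 778 against 860 to 942, and leukocyte markers 217 to 308 against 482 to 1171, with Cpa3 and Mcpt1 undetected in QKO. Of single markers tested, 0 of 3 fibroblast, 0 of 5 smooth muscle and 0 of 7 endothelial markers were called, and 2 of 6 leukocyte markers, Cpa3 and Mcpt1, were lower. Summed epithelial markers were 16569 to 19367 against 18920 to 19637. The part of cell makeup in the QKO values was not tested.

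**Figure D4:**
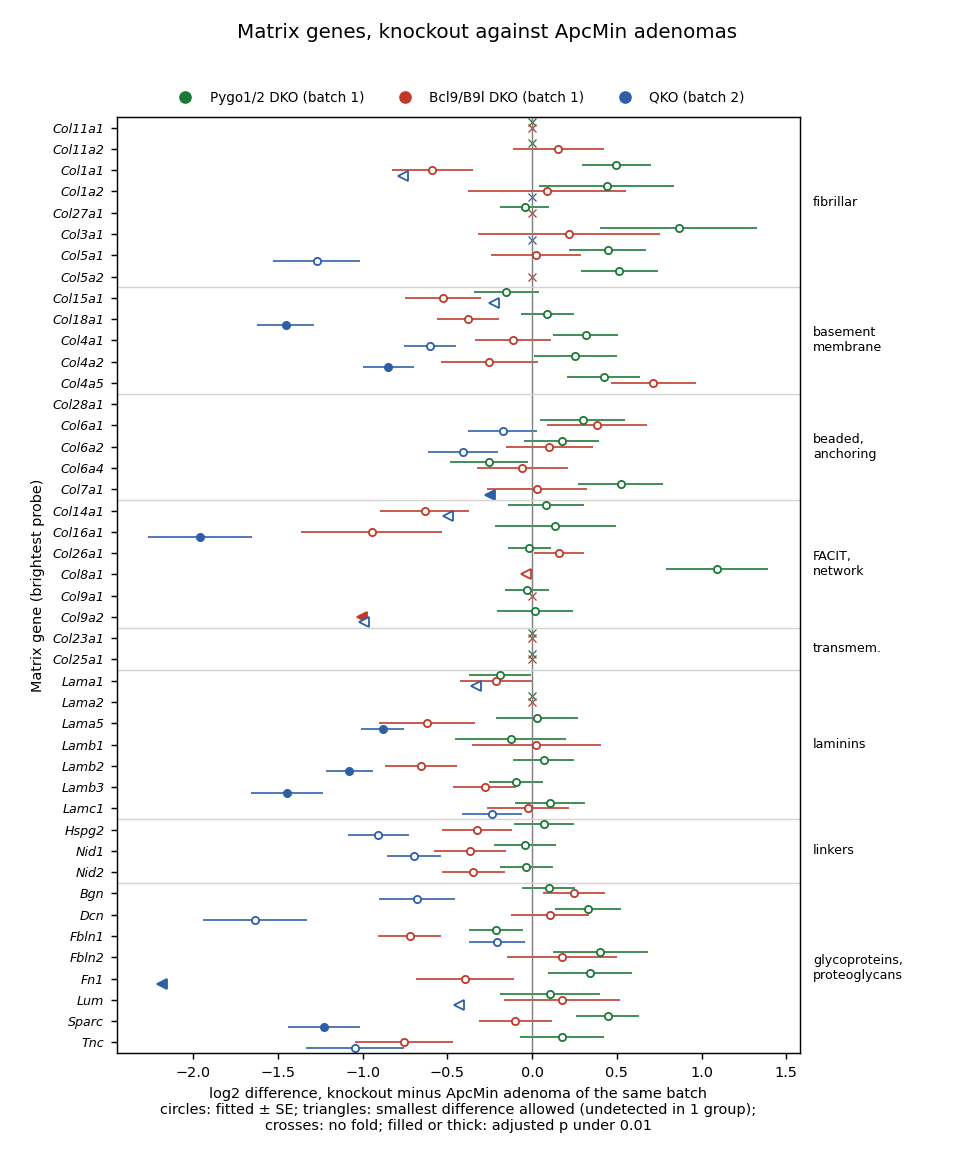
Log2 difference from the ApcMin adenomas of the same batch (x axis, knockout minus ApcMin) for each matrix gene (y axis, grouped by family) in Pygo1/2 DKO, Bcl9/B9l DKO and QKO adenomas; circles are fitted differences with SE bars, triangles are bounds where 1 group was undetected, crosses mark genes without a fold, and filled symbols passed an adjusted p of 0.01. QKO values lie to the left of 0, Fn1 and Col16a1 among the farthest, and Col9a2 is the one filled symbol of Bcl9/B9l DKO.

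**Figure D5:**
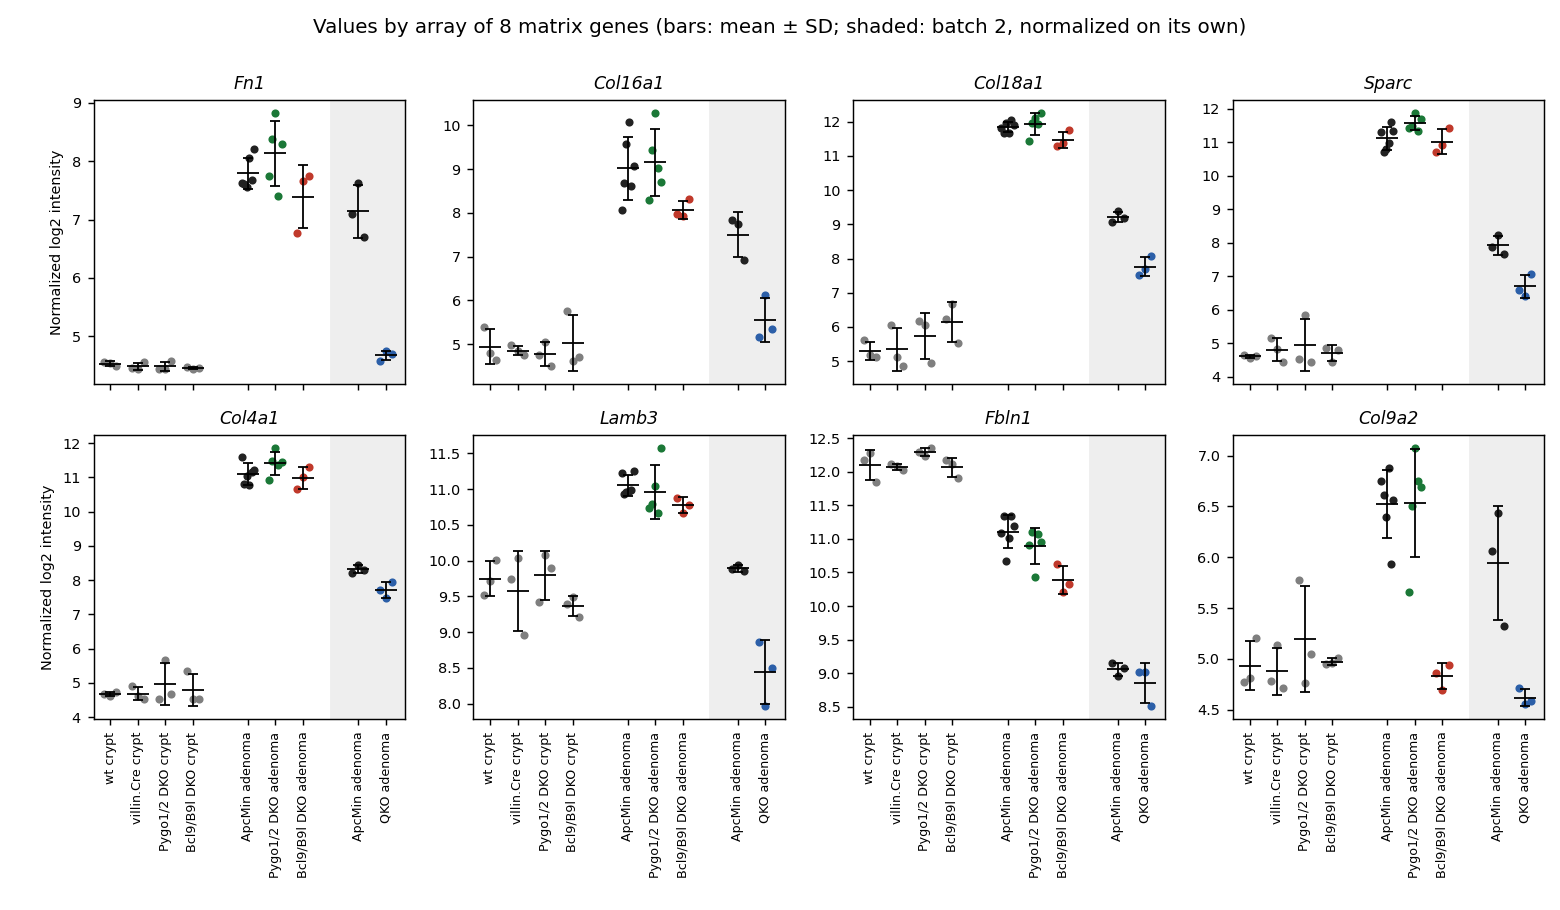
Normalized log2 intensity (y axis) of 8 matrix genes on each array by group, with bars for the mean and SD; the shaded arrays are batch 2, normalized on its own, so the shaded and unshaded parts are not to be compared in level. Fn1 in QKO adenomas is at 4.59 to 4.74, Col9a2 is low in Bcl9/B9l DKO and QKO adenomas, and Fbln1 runs highest in the crypts.

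Whether the QKO effect differed from that of a DKO was tested as the difference of the effects themselves, each taken against ApcMin adenomas of its own batch, over all 20 adenomas. Against the Pygo1/2 DKO effect 6 of 43 members differed, all lower in QKO, against 1.23% of all genes lower and 0.178% higher. Fn1 and Col1a1 were undetected in QKO adenomas, so that the QKO effect lay below the Pygo1/2 DKO effect by at least 5.76-fold (Fn1, adjusted p = 0.000539) and 2.39-fold (Col1a1, adjusted p = 0.00915). Col18a1 differed by -1.54 ± 0.25 (SE, adjusted p = 0.00131), Sparc by -1.67 ± 0.31 (adjusted p = 0.00398), Dcn by -1.96 ± 0.37 (adjusted p = 0.00521) and Lamb3 by -1.35 ± 0.27 (adjusted p = 0.00845). The Fn1 difference held in 26 of 26 other settings, Col18a1 in 25, Sparc in 20, Dcn in 19, Lamb3 in 10 and Col1a1 in 7, and 2 members passed without ApcMin adenoma 4, ApcMin adenoma 6 or QKO adenoma 2. Against the Bcl9/B9l DKO effect 0 of 43 passed limma's test, where 0.107% of all genes did, and 9 had an unadjusted p under 0.05. Fn1 came nearest, at least 3.46-fold below (adjusted p = 0.028), followed by Dcn at -1.74 ± 0.39 (adjusted p = 0.0521) and Col18a1 at -1.08 ± 0.26 (adjusted p = 0.0764). Without Bcl9/B9l DKO adenomas 1 and 3, the adjusted p of these 3 was 0.0903, 0.292 and 0.363. QKO and DKO adenomas were in different batches, so these contrasts assume that a batch scales both of its groups alike.

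In crypts without adenomas 18 members had signal on at least 1 array and could be tested, at the adjusted p of 0.05 that the study used for crypts. None passed limma's test in villin.Cre against wt crypts (0.0108% of all genes did, and 1 member had an unadjusted p under 0.05), in Pygo1/2 DKO against villin.Cre crypts (0.129%, 4 members) or in Bcl9/B9l DKO against villin.Cre crypts (0.215%, 0 members). Lama2, the alpha chain of muscle laminin, was at 6.40, 5.46 and 5.82 in Pygo1/2 DKO crypts and at 4.93, 5.19 and 4.73 in villin.Cre crypts, at least 1.05-fold higher with an adjusted p of 0.111. Its arrays in these groups did not overlap, as in 4 of 18 members and 8.73% of all genes in that direction, while 0 members lay wholly lower (14.9% of all genes). In villin.Cre against wt crypts 5 of 18 members lay wholly lower and 1 wholly higher, against 4.86% and 4.57% of all genes. These comparisons share the villin.Cre arrays. Among the crypts Lama2 was detected on 1 array, a Pygo1/2 DKO one, so it was tested only through that group. The wt crypts without villin.Cre, at 5.22, 5.58 and 5.52, overlapped the Pygo1/2 DKO crypts. Col18a1 was 0.80 ± 0.39 higher in Bcl9/B9l DKO than in villin.Cre crypts (adjusted p = 0.881), and its arrays overlapped.

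Genes that fold, modify and cross-link collagen were listed beside the members (12 genes). In ApcMin adenomas 8 of 12 were higher than in wt crypts, in Pygo1/2 DKO 9 of 12 and in Bcl9/B9l DKO 7 of 11, where 20.9%, 24.7% and 13.8% of all genes were higher. Serpinh1, which encodes the collagen chaperone HSP47, rose by 5.23 ± 0.27 on the log2 scale in ApcMin adenomas (adjusted p = 5.63e-08), Loxl1, a collagen and elastin cross-linking oxidase, by at least 5.63-fold, P4ha2, a prolyl hydroxylase subunit, by at least 4.47-fold, and Crtap, part of the prolyl 3-hydroxylation complex, by 2.19 ± 0.19. In QKO against ApcMin adenomas 1 of 9 tested was lower (4.28% of all genes were). All 9 lay below 0, with a median of -0.49, as did 49.5% of all genes tested. A gene silent in QKO adenomas could enter only through its ApcMin signal, so the filter favours values below 0. No count without the filter is given for this list. The gene called was Serpinh1, at 7.23, 6.24 and 6.74 against 8.79, 9.05 and 8.27 (-1.97 ± 0.28, adjusted p = 0.00354). Its QKO effect differed from the Bcl9/B9l DKO effect by -1.97 ± 0.33 (adjusted p = 0.00842) and from the Pygo1/2 DKO effect by -2.01 ± 0.31 (adjusted p = 0.00107). Plod2, a lysyl hydroxylase of fibrillar collagen, was at least 1.71-fold lower in Bcl9/B9l DKO than in Pygo1/2 DKO adenomas (adjusted p = 0.0023). This call and the Serpinh1 contrast with the Bcl9/B9l DKO effect were not recomputed without Bcl9/B9l DKO adenomas 1 and 3, which carried pancreatic transcripts.

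Receptors for these proteins were listed as well (11 genes). In ApcMin adenomas 6 of 11 were higher than in wt crypts, where 20.9% of all genes were: Itga5, the fibronectin integrin chain, by at least 3.25-fold, Itga11, a fibrillar collagen integrin chain, by at least 2.72-fold, and the epithelial Sdc1, a syndecan, and Itgb4, the laminin-332 integrin chain, by 1.30 ± 0.19 and 0.80 ± 0.14 on the log2 scale among them. Between adenoma genotypes none was called by limma. In QKO against ApcMin adenomas 8 of 11 lay below 0, with a median of -0.03, against 49.5% of all genes tested.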

How the data were processed

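RNA of 32 crypt and adenoma samples was hybridized to 1 array each. The deposited scanner intensities (45281 probes) came from the authors' GenomeStudio 2011.1 export, raw and not background-corrected, together with a detection p-value per probe that the authors' software gave against negative control beads. The deposited log2 values (20824 probes) were made by the authors by variance-stabilizing transformation and quantile normalization. The methods also name ComBat for the difference between batches, and whether the deposited values hold that adjustment is not given in the sources used. The authors tested with limma (3.34.9 in the submitters' processing notes).

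Here intensities were background-corrected and quantile-normalized with neqc (limma 3.58.1, R 4.3.3, offset 16) within each batch, with the deposited log2 values as an alternative. Probes detected at p under 0.01 on at least 1 array of a fit were tested with lmFit and eBayes, and p-values were adjusted by Benjamini-Hochberg over all probes tested, at 0.01 for adenomas and tissues and 0.05 for crypts. Background shares count genes by their brightest probe. Adenomas and crypts were fitted in pairs of groups, batch 1 adenomas together, batch 2 adenomas together, and crypts together, in 12 comparisons. Of the value table, 3216 probes had no listed gene and were not used for members. Arrays give no read depth, and their number limits the precision. Figures were drawn with Python 3.11.15 and matplotlib 3.10.9. The fit was tested on simulated data. Genes named are the 12 largest rises and up to 6 falls between tissues, all members called elsewhere or else the 3 of smallest p, and preset anchor genes. Members and lists were chosen with earlier results of these data known. Tried alternatives were the deposited values, joint normalization, plain quantile normalization, no detection filter, the mean over probes, other sets of arrays in the fit, a replicate block and leaving out arrays.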

Additional observations from a re-analysis of the deposited data

Results flagged for a closer look

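Effects of QKO and Pygo1/2 DKO, each against ApcMin adenomas of its own batch, differed by limma's test of the difference itself in 6 members, all lower in QKO: Dcn (-1.96 on the log2 scale), Sparc (-1.67), Col18a1 (-1.54), Lamb3 (-1.35), Fn1 and Col1a1. The last 2 were undetected in QKO adenomas, so their differences are bounds, of -2.53 (Fn1) and -1.26 (Col1a1) or lower. Single arrays far from the rest of their group were looked for in 52 sets of members and groups of 4 to 10 arrays, and 0 were found. Groups of 3 arrays, among them all crypt groups and the Bcl9/B9l DKO and QKO adenomas, were not searched.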

How the results depend on the processing

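Of 1393 recomputed values of single genes, 1264 kept their direction and their side of the threshold, 125 lost the call, 4 gained it and 0 reversed. This total includes genes that were not called, which had no call to lose, and the large differences between tissues. It therefore does not measure how stable the adenoma calls were. In QKO against ApcMin adenomas Col4a2 lost its call in 10 of 14 settings, Col7a1 in 9, Sparc in 8 and Fn1 in 0. Leaving out Bcl9/B9l DKO adenomas 1 and 3 together was an alternative chosen after seeing the data. It leaves 1 array in that group, so counts of calls are not given for it. In Bcl9/B9l DKO adenomas the count of 1 member called against ApcMin went to 0 with the deposited log2 values. Against Pygo1/2 DKO the count of 1 went to 0 with the deposited values or no detection filter. It went to 2 with only the 2 groups fitted or with all 20 adenomas and a batch term on values normalized over all 32 arrays. For QKO against ApcMin the count went from 9 to 5 with all arrays normalized together, 3 with no filter and 16 with all 20 adenomas and that batch term on jointly normalized values. The QKO effect against the Bcl9/B9l DKO effect went from 0 to 1 with joint normalization, and against the Pygo1/2 DKO effect from 6 to 11 with joint normalization, 2 with no filter and 3 with the mean over probes. The cause was not tested.

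Leaving out each array in turn gave 30 to 32 calls (ApcMin tissues), 29 to 33 (Pygo1/2 DKO tissues), 26 to 28 (Bcl9/B9l DKO tissues), 0 to 0 (Pygo1/2 DKO against ApcMin), 0 to 1 (Bcl9/B9l DKO against ApcMin), 0 to 2 (Bcl9/B9l against Pygo1/2 DKO, 2 without ApcMin adenoma 2), 1 to 9 (QKO against ApcMin), 0 to 0 and 2 to 7 (QKO effect against the Bcl9/B9l and the Pygo1/2 DKO effect, 7 without Pygo1/2 DKO adenoma 1) and 0 to 0 in all crypt comparisons.

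With the replicate number as a block the counts were 29, 30 and 28 between tissues, 0 in Pygo1/2 DKO against ApcMin, 0 in Bcl9/B9l DKO against ApcMin and against Pygo1/2 DKO, and 0 in crypts. Deviations of same-numbered arrays correlated at -0.44 to 0.45 in 18 pairs of crypts and -0.27 to 0.21 in 10 pairs of adenomas. Of these, 6 crypt pairs and 4 adenoma pairs were over 0.1. Such a spread cannot show whether same-numbered samples share more than a number. In QKO against ApcMin adenomas no block could be fitted, because the QKO adenomas and their batch 2 controls share no replicate numbers. Signal near background limits most members in crypts and 26 of 44 in QKO adenomas.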
